A study of Mus musculus with 39 samples.

Results

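Meiotic recombination genes are described here across the germ cells of mouse testis: Prdm9, Spo11, Dmc1, Meiob, Tex15, Msh4, Msh5 and Mlh3. They were chosen by name, and all 8 of 8 symbols were found among the 32285 genes of the single-cell files. The values are unique molecular identifiers (UMIs, single captured RNA molecules) from droplets of whole testis, with 1 library of a Kdm6a fl/y male without Cre (control) and 1 of a Kdm6a fl/y male with Ddx4-Cre (conditional knockout, cKO). Both carry the floxed allele of Kdm6a (Utx), an X-linked gene for a demethylase of lysine 27 on histone H3. Ddx4 is a germ-cell gene, so its Cre acts in germ cells and leaves the somatic cells of the testis as an internal comparison. The labels give neither age nor how many testes each library holds. Peak lists of cKIT+ spermatogonia, sorted by antibody from mice of the same genotypes, were read at the same genes (per assay 2 libraries of controls, 3 of cKO, besides 1 with IgG).

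Meiotic recombination begins with programmed breaks in DNA and ends with crossovers that hold homologous chromosomes together. In mice, PRDM9 marks the places with histone methylation, SPO11 cuts, recombinases such as DMC1 coat the resected ends and search for the homolog, and mismatch-repair relatives steer some intermediates to crossovers. Breaks form at leptotene, chromosomes pair through zygotene, and crossovers mature in pachytene, so the genes of this pathway act in an ordered series.

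The members lie apart in the genome (RefSeq spans, GRCm38.p6, the build the submitters' processing notes call mm10). Prdm9 spans chr17:15543072-15564374, Dmc1 chr15:79561497-79605159, Msh5 chr17:35028605-35046997 and Mlh3 chr12:85234466-85270647. Spo11 spans chr2:172977379-172993576, Tex15 chr8:33516689-33592503, Msh4 chr3:153857141-153906138 and Meiob chr17:24804301-24839788. The Meiob span overlaps that of Hagh, and no source used here states the strand setting of the counting, so reads of these neighbours may not be fully separable.

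RefSeq promoter sequences were given for 5 members (Prdm9, Dmc1, Mlh3, Msh4, Msh5). The stretches below are shown because Prdm9 and Msh5, both highest at meiotic entry, carry 2 searched motifs side by side, while Dmc1, highest at the same gate, and Mlh3, highest later, carry neither. All are on the minus strand, written 5′ to 3′. Capitals mark GGCGGGA (an E2F-type motif) and CNCCTCAG (the motif described for STRA8, the factor that starts meiosis), each on either strand.
Prdm9, chr17:15564375-15564474: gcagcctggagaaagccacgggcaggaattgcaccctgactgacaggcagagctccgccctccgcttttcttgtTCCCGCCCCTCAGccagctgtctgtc
Msh5, chr17:35046678-35046707: cggCTGAGGTGacggaaaaGGCGGGAaagt
Dmc1, chr15:79605160-79605259: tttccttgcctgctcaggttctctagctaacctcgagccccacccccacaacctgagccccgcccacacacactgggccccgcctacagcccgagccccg
Mlh3, chr12:85270648-85270747: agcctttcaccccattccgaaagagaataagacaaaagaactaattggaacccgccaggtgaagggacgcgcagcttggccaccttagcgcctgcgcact
In Prdm9 the motifs overlap and form 1 run of capitals, in which both are read from the same stretch on opposite strands.

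Over the window from 250 bases before to 50 after the start, GGCGGGA lay in 3 of the 7 member promoters (2 of Prdm9, 1 of Msh5) and in 11.3% of all 32851 promoters. CNCCTCAG lay in 2 of the 7 (1 of Prdm9, 1 of Msh5) and in 7.94% of all. The E-box CACGTG and the CRE TGACGTCA lay in 0 of 7, against 7.15% and 1.79% of all. AACNG, the core of MYB sites, lay in 7 of 7, but also in 80.3% of all promoters. The share of all promoters that hold GGCGGGA and CNCCTCAG together was not counted. Msh4, whose promoter is not shown, carries neither. These matches describe letters and not binding, and a link between motifs and the gate of a peak was not tested.

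Barcodes with at least 3000 UMIs numbered 11252 in the control and 8520 in the cKO library, with medians of 8410.5 and 8499 UMIs, and 30 barcodes occurred in both. Cells were gated by marker lists that hold no member. The gate called meiotic entry (5 markers, among them Stra8) held 232 control and 58 cKO cells. Leptotene/zygotene held 415 and 231, zygotene/pachytene 574 and 531, and pachytene 1269 and 890. Gates are ranges of a score: within 0.1 of the score that divides the early-prophase gates lay 49 and 54 control cells and 27 and 38 cKO cells of those gates. Levels are CPM, the UMIs of a gene scaled to the total UMIs of its gate, with exact Poisson 95% intervals that cover counting error only. With 1 library per genotype no difference could be tested, fewer cells of a type cannot be told apart from sampling of the tissue, and p-values are not given. Kdm6a, the check of the labels, was at 52.5 CPM in control and 8.83 in cKO cells at meiotic entry, and at 33.5 and 4.16 in leptotene/zygotene. It was at 15.7 and 10.5 in spermatogonia, where the interval of the log2 ratio (-0.58) includes 0. In the somatic gates, outside the germ line, it was at 6.38 and 13.2 in Sertoli cells and at 13.3 and 8.51 in Leydig cells, the latter with an interval that includes 0.

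**Figure D1:**
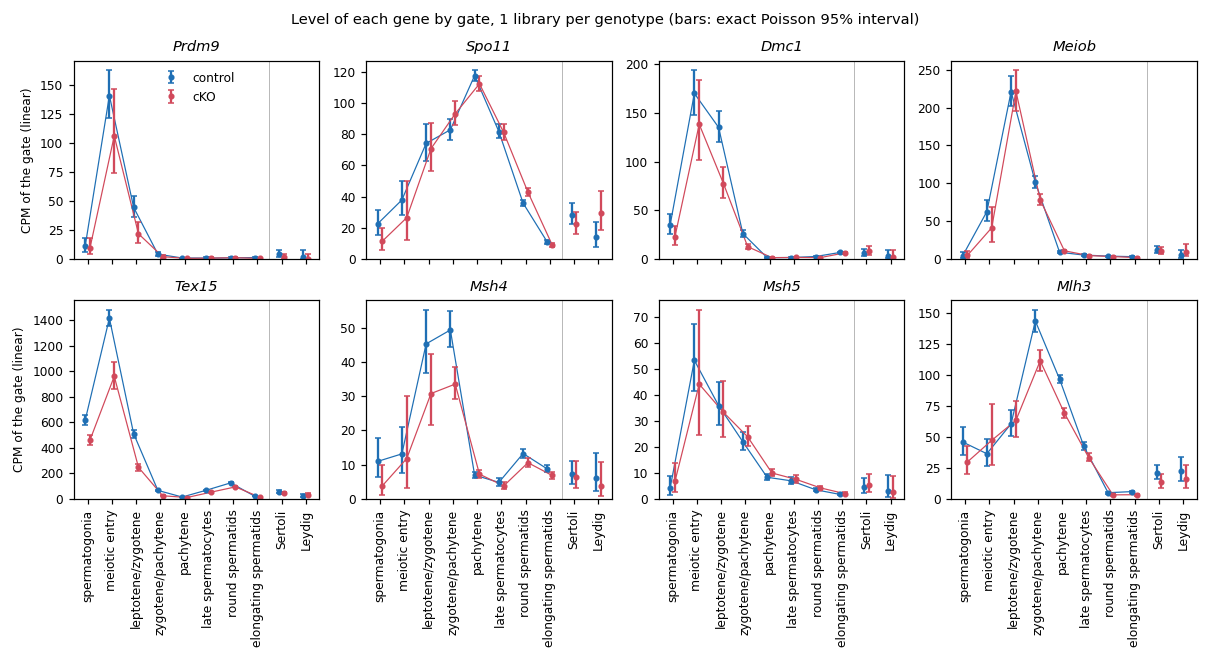
CPM (linear axes that differ between panels) of the 8 genes in 8 germ-cell gates and, right of the line, 2 somatic gates, for the control (blue) and cKO (red) library; bars are exact Poisson 95% intervals. Prdm9, Dmc1, Tex15 and Msh5 peak at meiotic entry, Meiob in leptotene/zygotene, Msh4 and Mlh3 in zygotene/pachytene and Spo11 in pachytene, in both libraries.

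The highest gates ran from meiotic entry to pachytene, and each of the 8 genes was highest in the same gate in both libraries. Intervals of the highest and the next gate overlap for Msh4 and Msh5 in both libraries and for Dmc1 in the control. Prdm9, Dmc1, Tex15 and Msh5 were highest at meiotic entry (4 of 8), a gate that is the highest one for 10.5% of all 16646 genes compared in the control and 15.3% in the cKO library. Meiob was highest in leptotene/zygotene (8.01% and 8.93% of all genes). Msh4 and Mlh3 were highest in zygotene/pachytene (9.74% and 8.45%), and Spo11 in pachytene (10.6% and 9.29%). Of all genes, 74.9% had the same highest gate in both libraries.

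Prdm9, the methyltransferase that places the breaks, appeared for a short time. It stood at 10.9 CPM in control and 9.58 in cKO spermatogonia, at 141 and 106 at meiotic entry, and at 44.4 and 21.6 in leptotene/zygotene. By zygotene/pachytene it was at 4.13 and 1.92, and in late spermatocytes at 0.765 and 0.736. Free RNA, read from barcodes with at most 100 UMIs, was at 1.80 and 1.65. The last levels, except that of the control in zygotene/pachytene, lie near or below it. How much free RNA the barcode of a cell holds was not estimated, so levels in free RNA are not a measured background. The levels at entry rest on 182 control and 36 cKO UMIs at entry, and the intervals of the 2 libraries there overlap (121 to 163, and 74.2 to 147).

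Dmc1, the meiosis-specific recombinase, was already at 34.9 and 23.0 CPM in control and cKO spermatogonia. It was at 170 and 138 at entry and at 135 and 77.4 in leptotene/zygotene. In the control the intervals of these last 2 gates overlap, whereas in the cKO library they do not. It was at 26.1 and 12.6 in zygotene/pachytene and at 1.37 and 1.34 in pachytene. In elongating spermatids it was at 6.65 and 6.22, close to its 5.14 and 5.83 in barcodes with at most 100 UMIs, which hold free RNA.

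Tex15, needed to load the recombinases onto breaks and also known from the silencing of transposons, was present before and through entry. Spermatogonia held 614 CPM in control and 460 in cKO. Entry held 1414 and 959, leptotene/zygotene 509 and 246, and pachytene 13.3 and 9.56. Later gates held more again: 66.8 and 51.8 in late spermatocytes and 124 and 92.8 in round spermatids, against 37.9 and 26.3 in free RNA. Round spermatids held 34.1% of all Tex15 UMIs of the control library and 49.2% of those of the cKO library, more than any other gate.

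Meiob, which binds single-stranded DNA together with SPATA22, was at 62.6 and 41.2 CPM at entry. Its peak in leptotene/zygotene was 221 in control and 221 in cKO. It was at 101 and 78.2 in zygotene/pachytene and at 8.85 and 10.8 in pachytene. At its peak the log2 ratio of the libraries was 0.00, with an interval that includes 0.

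Msh4 and Msh5 encode partners in one complex that stabilises recombination intermediates, but their RNAs did not follow the same course. Msh5 was highest at entry (53.3 CPM in control, 44.1 in cKO) and then stood at 35.9 and 33.3, 21.9 and 23.8, and 8.27 and 9.92 through pachytene. Its intervals at entry and in leptotene/zygotene overlap in both libraries, and at a minimum of 5000 UMIs it was highest in leptotene/zygotene in the control. Its free RNA was at 5.14 and 6.58. Msh4 was at 13.1 and 11.8 at entry (17 and 4 UMIs), and at 45.3 and 30.8 in leptotene/zygotene. It peaked at 49.4 and 33.6 in zygotene/pachytene, with intervals that overlap those of the gate before. Msh4 was also at 13.2 and 10.6 in round spermatids (7.08 and 4.64 in free RNA), where Msh5 was at 3.47 and 4.18. Over the 16 library and gate levels the Pearson correlation of log2(CPM + 1) between Msh4 and Msh5 was 0.587. Among all pairs of members the highest were Prdm9 with Dmc1 (0.942) and Msh5 with Meiob (0.909). The lowest was Spo11 with Tex15 (-0.204). The points share 2 libraries and their depths, so these are descriptions.

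Mlh3, whose product is needed to resolve intermediates into crossovers, came later. It was at 36.3 and 47.1 CPM at entry, 60.4 and 63.3 in leptotene/zygotene, and 143 and 111 in zygotene/pachytene. Pachytene followed with 96.5 and 69.1, and late spermatocytes with 42.4 and 33.2. Round spermatids were at 4.86 and 3.12, the lowest of its germ-cell gates.

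Spo11, the enzyme that makes the breaks, was highest after the stage at which breaks form. It was at 37.9 CPM in control and 26.5 in cKO at entry, 74.1 and 70.7 in leptotene/zygotene, 82.9 and 93.2 in zygotene/pachytene, and 118 and 112 in pachytene. Late spermatocytes were at 81.7 and 81.1, and round spermatids at 35.8 and 42.8. Free RNA was at 40.0 and 39.5, near or above the levels at entry, in round spermatids and in Sertoli cells (28.5 and 22.1). Elongating spermatids were lower, at 10.8 and 9.02, so the level in free RNA is not a floor for cells. Mouse Spo11 is known for an early and a late splice form, which UMIs at the 3′ end do not separate.

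Finer clusters, made without the 8 genes and numbered by the software, show an early and a late level of Spo11. In cluster 24 (Ccnb3 at 218 and 211 CPM) Spo11 was at 106 in control and 121 in cKO. In cluster 17, next in the order of markers, it was at 46.7 and 50.5, and in cluster 15 (pachytene list) at 127 and 128. The dip in cluster 17 was present in both libraries, with intervals that overlap neither those of cluster 24 nor those of cluster 15. Prdm9 was at 182 and 216 in cluster 30 (Stra8 at 1169 and 1346), at 127 and 128 in cluster 24, and at 4.12 and 0.721 in cluster 17. Meiob had the opposite order, with 33.7 and 25.9 in cluster 30, 222 and 223 in cluster 24, and 302 and 307 in cluster 17.

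In single cells thinned to 3000 UMIs each, 96 of 232 control cells at meiotic entry (41.4%, Clopper-Pearson 95% interval 35.0 to 48.0) and 17 of 58 cKO cells (29.3%, 18.1 to 42.7) held UMIs of at least 3 of the 8 genes. Cells of spermatogonial cluster 22 were 12.5% of the former and 34.5% of the latter, and among spermatogonia 4.81% and 2.56% held at least 3. In leptotene/zygotene the shares were 34.5% (29.9 to 39.2) and 19.5% (14.6 to 25.2). Cluster 24 made up 42.7% of that gate in control and 17.3% in cKO, and cluster 17 made up 36.1% and 59.7%. The intervals cover the draw of cells within 1 library and not differences between animals. In the Sertoli gate, which also holds germ-cell RNA, they were 0.726% and 0.346%. Tex15 had a UMI in 97.0% of control and 89.7% of cKO cells at entry, against 14.5% and 10.0% of Sertoli cells. Prdm9 had one in 34.5% and 29.3% at entry and in 1.21% and 0.692% of Sertoli cells. Median depths before thinning were 4331.5 and 5109.5 UMIs at entry and 4508 and 5203 in Sertoli cells. Without thinning the Prdm9 shares at entry were 45.3% and 39.7%.

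**Figure D2:**
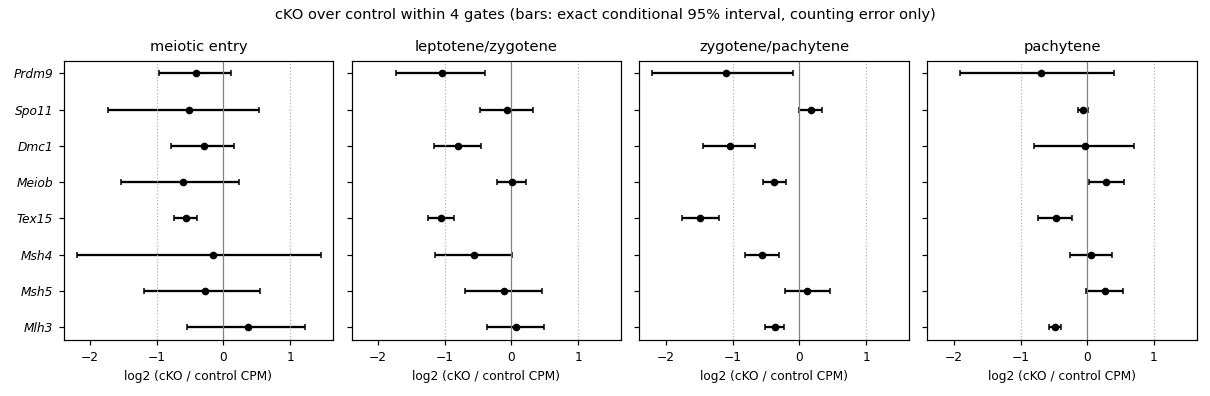
Log2 ratio of cKO over control CPM for the 8 genes in 4 gates; bars are exact conditional 95% intervals (counting error only) and dotted lines mark 2-fold. Tex15 lies below 0 in all 4 gates, and no gene lies past 2-fold on the higher side.

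Between the libraries, the members past 2-fold in germ-cell gates were all lower in cKO: Prdm9 and Tex15 in leptotene/zygotene (2 of 8 members, against 5.43% of all 10291 genes with at least 20 UMIs), and Prdm9, Dmc1 and Tex15 in zygotene/pachytene (3 of 8, against 2.62%). Msh4 was the only one in spermatogonia (1 of 6 with enough UMIs, against 3.87%), from 16 control and 4 cKO UMIs, with an interval that includes 0 (-3.55 to 0.12). It was not counted as past 2-fold there at a minimum of 5000 UMIs, without barcodes of few genes or high mitochondrial share, without Scrublet doublets or with Leiden clusters. Its 20 UMIs over both libraries are just at the minimum for a comparison, so settings that drop cells can leave it out. A minimum of 50 UMIs per gene did leave it out. Spo11 was 2-fold lower in spermatogonia without those barcodes and without doublets, and Dmc1 at 5000 UMIs. Prdm9 was the only one in elongating spermatids (1 of 8, against 1.98%), at 1.22 and 0.459 CPM, both below its free RNA (1.80 and 1.65). Mlh3 was 2-fold lower there without doublets, and Dmc1 in leptotene/zygotene at 5000 UMIs. At meiotic entry 0 of 8 were past 2-fold (6.38% of all genes lower), as in pachytene (1.85%), late spermatocytes (2.51%) and round spermatids (2.88%). No member was 2-fold higher in any germ-cell gate. Among Leydig cells Spo11 was at 14.3 CPM in control and 29.2 in cKO (14 and 24 UMIs, log2 ratio 1.03), both below its free RNA. Of all genes, 0.97% were 2-fold higher in spermatogonia, 2.64% at entry, 1.38% in leptotene/zygotene and 0.634% in zygotene/pachytene. Later gates had 0.658% (pachytene), 0.64% (late spermatocytes), 0.7% (round spermatids) and 0.558% (elongating spermatids). The median log2 ratio of the members in leptotene/zygotene was -0.33, that of all genes -0.09. The median at entry was -0.35 against -0.06, and member ratios at entry turned with the settings. At 5000 UMIs they were 0.21 for Prdm9, 0.18 for Msh5 and 0.02 for Dmc1, with Leiden clusters 0.25 for Prdm9 and 0.43 for Msh5, and at 2000 UMIs 0.04 for Dmc1. Spermatogonial cluster 22 made up 12.5% of the entry gate in control and 34.5% in cKO.

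In leptotene/zygotene Tex15 had a log2 ratio of -1.05 (95% interval -1.24 to -0.86) and Prdm9 of -1.04 (-1.72 to -0.40). In zygotene/pachytene the ratios were -1.48 for Tex15, -1.11 for Prdm9 and -1.05 for Dmc1. Tex15 was there at 65.2 CPM in control and 23.3 in cKO, the latter below its free RNA (37.9 and 26.3). In pachytene Tex15 was lower still, at 13.3 and 9.56, so its level in free RNA is not a floor for cells. Prdm9 in cKO was also near its free RNA. At a minimum of 2000 UMIs per barcode neither gene was past 2-fold in leptotene/zygotene, and Prdm9 was not past it there without Scrublet doublets. In zygotene/pachytene Prdm9 and Dmc1 were not past 2-fold at 2000 or 5000 UMIs, without doublets or with Leiden clusters. Prdm9 was also not counted there at a minimum of 50 UMIs per gene, nor Dmc1 with median-ratio scaling. That scaling moved the median log2 ratio of all genes there from -0.096 to -0.019, and the Dmc1 ratio of -1.05 lies close to the 2-fold line. The cells of these gates were not the same mixture in both libraries. Cluster 24 made up 42.7% of the leptotene/zygotene gate in control and 17.3% in cKO, and cluster 17 made up 36.1% and 59.7%. In the leptotene/zygotene gate the early-prophase list summed to 6707 and 6372 CPM (8 genes), meiotic entry to 246 and 239 (5) and pachytene to 1269 and 1401 (5). Cells enter this gate by their scores on the same lists, so these sums cannot show whether the mixtures are alike. Spermatogonia markers summed to 76.0 and 110 CPM (8 and 9 of 10 genes with a UMI). Sertoli markers were at a summed 221 and 171 CPM (6 of 7 genes with a UMI, Fshr at 0 in both) and elongating-spermatid markers at 27898 and 20203 (6 of 6).

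**Figure D3:**
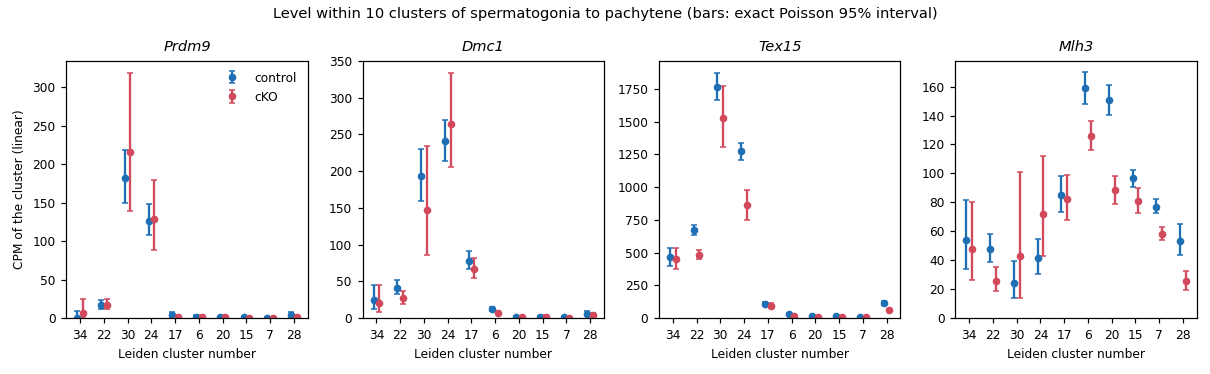
CPM (linear axes) of Prdm9, Dmc1, Tex15 and Mlh3 in 10 clusters, in order from spermatogonia (34, 22) over meiotic entry (30) and early prophase (24, 17, 6) to pachytene (20, 15, 7, 28), with exact Poisson 95% intervals. Prdm9 intervals of the 2 libraries overlap in each cluster with 20 UMIs, whereas Tex15 is lower in cKO in 10 of 10 clusters.

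Within clusters with at least 20 UMIs, all members but Prdm9 and Msh5 were at lower levels in cKO in most, Spo11 and Meiob in only 5 of 8. The share of all genes lower in cKO was not counted by cluster. Over the gates from spermatogonia to pachytene it ran from 54.3% (meiotic entry) to 60.1% (zygotene/pachytene), close to 5 of 8. The clusters share the same 2 libraries, so counts of clusters are descriptions. Prdm9 was lower in 0 of the 3 clusters with at least 20 UMIs, with log2 ratios of 0.02 to 0.25. Cluster 17, with 9 control and 1 cKO UMIs, is not among these. At meiotic entry its sign also depended on the way cells were grouped: -0.41 in the gate and 0.25 in the cluster. Dmc1 in cluster 24 was at 241 CPM in control and 264 in cKO, and in meiotic-entry cluster 30 at 193 and 147. In these finer clusters it was thus highest in early prophase and not at entry, with intervals of the 2 clusters that overlap in both libraries. It was lower in cKO in 4 of 6 clusters, and its interval lay below 0 in 2, spermatogonial cluster 22 (41.1 and 27.1) and cluster 6 (11.8 and 7.29).

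Tex15 was lower in cKO in 10 of 10 clusters, and its interval lay below 0 in 5. It was at 672 CPM in control and 484 in cKO in cluster 22, at 1767 and 1528 in cluster 30, and at 1273 and 861 in cluster 24. The log2 ratio ran from -1.11 in cluster 6 to -0.04 in cluster 34. Free RNA of Tex15 was also lower in the cKO library (37.9 and 26.3).

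Mlh3 was lower in 8 of 10 clusters, with the interval below 0 in 6. In cluster 20 (pachytene list) it was at 151 CPM in control and 88.2 in cKO (log2 ratio -0.77, interval -0.96 to -0.59). In cluster 6 it was at 159 and 126, in cluster 15 at 96.5 and 80.8, and in cluster 7 at 77.0 and 58.0. In clusters 30 and 24 it was higher in cKO (24.1 and 43.2, 41.4 and 71.7), with intervals that include 0. These rest on 15 control and 5 cKO UMIs in cluster 30, and on 50 and 19 in cluster 24. Free RNA of Mlh3 was at 13.2 and 15.4.

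Msh5 was lower in cKO in 1 of 8 clusters, with the interval above 0 in cluster 7 (6.21 and 8.81 CPM), near its free RNA, which was also higher in cKO (5.14 and 6.58). Msh4 was lower in 7 of 8, with the interval below 0 in clusters 6 (50.5 and 40.1) and 17 (57.2 and 38.2). Spo11 was lower in 5 of 8 and Meiob in 5 of 8. The Spo11 intervals included 0 in each, and 1 Meiob interval, in cluster 20, lay above 0 (9.25 and 14.4, with free RNA at 7.63 and 9.27).

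**Figure D4:**
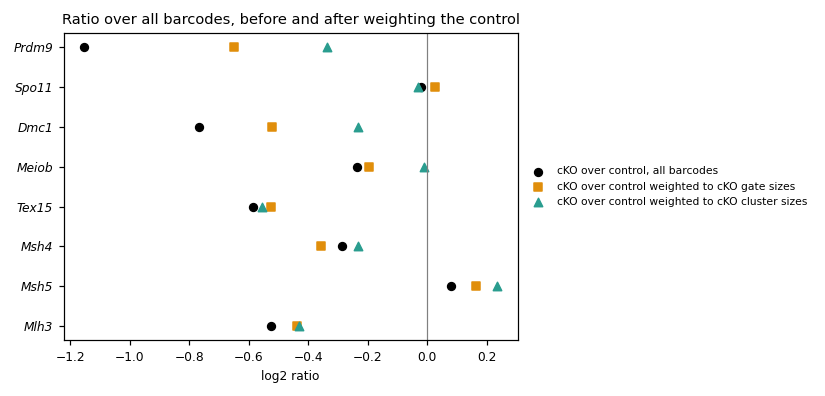
Log2 ratio of cKO over control over all barcodes (black circles), and over the control weighted to the cKO library's gate sizes (orange squares) or cluster sizes (green triangles). Prdm9 and Dmc1 come nearer to 0 with weighting, while Tex15 stays between -0.58 and -0.53 and Mlh3 between -0.53 and -0.43.

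Over all barcodes Prdm9 was at 3.50 CPM in control and 1.57 in cKO (log2 ratio -1.15), and Dmc1 at 8.96 and 5.26 (-0.77). When control levels were weighted to the cluster sizes of the cKO library, the cKO value was -0.34 from the weighted control for Prdm9 and -0.23 for Dmc1. With gates in place of clusters the values were -0.65 and -0.52. For Tex15 (80.6 and 53.7 CPM) the ratio was -0.58 before and -0.56 after weighting by clusters, and for Mlh3 (41.0 and 28.5) it was -0.53 and -0.43. Spo11 was at 56.0 and 55.2 (-0.02 and -0.03). Cluster 24 held 297 control and 68 cKO cells and cluster 30 held 127 and 24. Whether these cell numbers belong to the genotype or to the single library was not tested.

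Other genes of the pathway were taken from a list of 47. Of those, 46 had enough UMIs to compare gates. Highest at meiotic entry were 18 in the control (10.5% of all genes) and 20 in the cKO library (15.3% of all genes). At meiotic entry 5 of 45 with at least 20 UMIs were 2-fold lower (6.38% of all genes) and 0 higher, with a median log2 ratio of -0.19. They were Ccdc36 (the IHO1 gene, for break formation; 60.3 CPM in control, 17.7 in cKO), Shoc1 (a ZMM crossover factor; 61.8 and 26.5), Rnf212 (a SUMO or ubiquitin ligase relative of crossover sites; 21.6 and 8.83), Mnd1 (a DMC1 partner; 17.8 and 8.83) and Spata22. For Mnd1 and Rnf212 the cKO value is 3 UMIs, and their intervals include 0. In leptotene/zygotene Mnd1 was at 65.6 CPM in control and 116 in cKO (139 UMIs each, log2 ratio 0.82, interval 0.47 to 1.17). Spata22, the partner of MEIOB, had 30 UMIs in control and 0 in cKO, and the interval of its log2 ratio reaches up to -1.005. With Leiden clusters none of these 5 was past 2-fold at entry. Ccdc36 and Shoc1 were past it under each of the other alternatives, whereas Mnd1, Rnf212 and Spata22 were not counted as past it at 5000 UMIs per barcode. A minimum of 50 UMIs per gene left Mnd1, Rnf212 and Spata22 out, since each had fewer UMIs at entry. Mnd1 was also not past it at 2000 UMIs, without barcodes of few genes or high mitochondrial share, or without doublets.

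In leptotene/zygotene 4 of 44 were 2-fold lower (5.43% of all genes) and 0 higher, with a median of -0.22. Below 0 lay 27 of the 44, against 57.8% of all genes. Zcwpw1, a reader of the marks PRDM9 makes, was at 238 CPM in control and 118 in cKO. Spata22 was at 29.7 and 10.8, Brip1, a helicase, at 35.9 and 13.3, and Mcm9, a helicase subunit, at 24.6 and 7.49. None of the 4 was past 2-fold at a minimum of 2000 UMIs, and Zcwpw1 was not at 5000 UMIs, with Leiden clusters or with median-ratio scaling. In zygotene/pachytene 1 of 44 was lower (2.62% of all genes), Tex11, an X-linked crossover gene, at 5.98 and 2.40, and 0 were higher. Tex11 was not past 2-fold there at 5000 UMIs or with Leiden clusters.

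The genes whose course over the 16 library and gate levels was most like that of a member were named from 16638 candidates by Pearson correlation of log2(CPM + 1). Rad21l (0.988, itself a marker of the gates), Alcam and Pdlim5 were closest to Prdm9. Tbck (0.988), Evl and Cyld were closest to Dmc1, and Taf7l (0.987) and Smc3 to Tex15. Ccdc122 (0.973), Zmynd11 and Sipa1l2 were closest to Meiob, and Inca1 (0.980), H2-K1 and Pigp to Msh5. Echdc1 (0.990), Ppp4r3b and Topaz1 were closest to Mlh3, and Glt8d1 (0.980), Pex13 and Taf7l2 to Spo11. Msh4 had the least close neighbours, Trpc7 (0.894), Syce3 and Rcor1.

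In the cKIT+ spermatogonia, a population before meiosis, 7 of the 8 members had an ATAC-seq peak (open chromatin) within 500 bases of an end of their span in each control library and in 2 of the 3 cKO libraries, and 8 of 8 had one in cKO library 3. Among 21883 protein-coding genes the shares were 43.2% and 53.8% in the control libraries and 33.5%, 41.2% and 57.2% in the cKO libraries. Groups of 2 and 3 libraries allow no exact permutation p below 0.1, and none is given. Spo11 was the exception: in both controls and in cKO library 2 it had no peak at either end, and its constant peak, chr2:172979737-172980110 in cKO library 1, lay inside the gene. Prdm9 had a peak over its outer start site in 5 of 5 libraries, with the authors' fold enrichments of 8.53 and 9.53 in the controls and 6.93, 8.33 and 9.42 in cKO. Dmc1 also had one in 5 of 5. Mlh3 had one in 2 of 2 control and 2 of 3 cKO libraries, and none in cKO library 1. Msh5 had one over its start in 1 of 2 control and 1 of 3 cKO libraries. Msh4 and the inner start of Prdm9 had none there in any library, but had one within 1000 bases in each, as did Msh5. Among all genes, 29.8% and 38.2% had a peak at a start in the controls, and 22.7%, 28.4% and 41.0% in cKO.

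H3K27me3, the mark that KDM6A removes, was not called within 1000 bases of any of the 7 start sites of the 5 members with known starts in any of the 5 CUT&Tag libraries. Among all genes of the promoter table, 12.2% and 15.0% had such a region in the controls and 7.91%, 10.0% and 13.7% in cKO. Spo11 had one over its lower end in control library 1 (chr2:172975339-172977775) and over its upper end in cKO libraries 1 and 2. Meiob had regions inside its span in control library 2 and in cKO library 2. The IgG library had none at any member. The lists differ in length, from 11118 to 18494 regions, and give calls and not levels.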

How the data were processed

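The single-cell matrices hold raw UMI counts for each barcode, as deposited, made with Cell Ranger for mm10 per the submitters' processing notes, which also name Seurat 4.1.0. Cells were not selected in the files. The ATAC-seq peak lists of the authors give a fold enrichment (a ratio) and a −log10 q per peak, and their CUT&Tag lists give a signal per region. The deposited bulk RNA files were not used, since their transcript IDs are not paired with genes.

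Barcodes needed 3000 UMIs. Each was assigned to the marker list with the highest mean z score (at least 0.5, with 2 markers detected). The early-prophase gate was split at a pachytene score of 0.5, a choice made after seeing the data. The members, marker lists and pathway list were chosen with earlier results of these data known. Named genes are the members, pathway genes past 2-fold at entry or in early prophase (at least 20 UMIs over both libraries), the 3 most alike genes per member (at least 100 UMIs) and Kdm6a; 1 gene that this rule selects is not reported here. Markers that place a cluster and genes past 2-fold only under an alternative are named outside this rule, after their values were seen. Genes highest in a gate were counted among those with at least 100 UMIs. Leiden clusters (leidenalg 0.10.2, resolution 1.5) left out the members, and the 10 described rank highest for a list from spermatogonia to pachytene and hold under 50000 CPM of elongating-spermatid markers. Doublets were called with Scrublet (scanpy 1.11.5) and kept. Intervals are exact Poisson, Clopper-Pearson or conditional binomial at 95%. The calculation of UMI ratios was tested on simulated counts with known folds. The motifs, the promoters shown and the rule for the 10 clusters were chosen after seeing the data.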

Additional observations from a re-analysis of the deposited data

How the results depend on the processing

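No paired analysis was possible because each genotype is 1 single-cell library and the results come from no test. Of the 16 highest gates, 16 were the same at 2000 UMIs, without barcodes of few genes or high mitochondrial share, without Scrublet doublets and with Leiden clusters pooled by the list that names them, and 15 at 5000 UMIs, where Msh5 in control was highest in leptotene/zygotene. The 7 cases of a member 2-fold lower in a gate became 3 at 2000 UMIs and 4 with Leiden clusters. They were 5 to 7 under the other alternatives, including the early-prophase gate left whole, an alternative added after seeing the data (5). Tex15 in zygotene/pachytene (or whole early prophase) and Prdm9 in elongating spermatids were among them in each. The pathway count of 16 lower lay between 11 and 22 with Leiden clusters, median-ratio scaling, minimums of 1 and 50 UMIs per gene and the gate whole, with 2 higher at a minimum of 1 UMI. The genes differed: with Leiden clusters the 5 named at entry, Zcwpw1 in leptotene/zygotene and Tex11 in zygotene/pachytene were not among them. Rec114 at entry was 2-fold higher at 5000 UMIs per barcode. With the gate whole, Swsap1 was also among the lower. Of 128 shares of cells, 18 lay within the thinned interval without thinning. Start sites with an ATAC-seq peak in at least 1 library were 5 of 7, and 7 with 1000 bases on each side. Among all genes, 22.7% to 41.0% had a peak at a start in a given library, and 28.6% to 49.4% within 1000 bases. At 5000 UMIs the control levels at entry were 81.2 CPM for Prdm9 (141 as reported), 103 for Dmc1 (170) and 26.4 for Msh5 (53.3). Prdm9 at entry had a log2 ratio of 0.21 at 5000 UMIs and 0.25 with clusters, against -0.41. Precision is limited by counts: 58 cKO cells at meiotic entry gave 36 UMIs of Prdm9, and intervals cover counting error only.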
